A study of Mus musculus with 4 samples.

Results

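The Cdx family of the mouse consists of Cdx1, Cdx2 and Cdx4, and each gene had 1 probe among the 41174 non-control probes of the array. The probes were found by the gene name in the scanner files. By the scanner's flag, each of the 3 was well above background in mutant and wildtype channels alike on every array, so all 3 entered the test across 14843 genes. The mutant embryos carried 1 null allele of Cdx2 and no functional allele of Cdx4 (Cdx2+/- Cdx4-/-), and the other group was wildtype. Tissue behind the last somite boundary was taken at 5 to 6 somites, and RNA came from pools of 10 embryos for each genotype. Cdx4 lies on the X chromosome. The sex and strain of the embryos and the construction of the null alleles are not given in the sources used here. Each array compared a mutant with a wildtype pool in 2 dyes, Cy3 and Cy5, and the titles give 2 replicates with a dye swap each. Arrays 1 and 2 below are replicate 1 and its dye swap, and arrays 3 and 4 are replicate 2 and its dye swap. The labels do not state whether each replicate had its own pool of embryos. In the main fit the p-values rest on 2 averages of 2 arrays each and on a spread largely pooled over genes. Some or all of that spread may therefore be technical.

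Cdx proteins are homeodomain transcription factors related to Drosophila caudal. In the vertebrate embryo they are made in the primitive streak and tail bud, where Wnt, FGF and retinoic acid signals control their genes, and they act on central and posterior Hox genes and on the upkeep of axial progenitors. Cdx2 is also known for its part in trophectoderm and, with Cdx1, in the intestinal epithelium. The 3 factors are partly redundant in axis extension. A comparison of this mutant with wildtype therefore asks how much transcript of the targeted genes is left and how the untargeted member Cdx1 responds.

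The direction of the ratios is not settled by the labels. Arrays 1 and 3 carry the same dyes by their labels, yet their log2 Cy5 over Cy3 ratios correlated at r = -0.36 over 41108 probes. Arrays 2 and 4, also of the same labelled dyes, correlated at r = -0.38. Arrays 1 and 2, labelled as dye swaps of each other, correlated at r = 0.75, and arrays 3 and 4 at r = 0.79. The correlations are across probes, which are not independent replicates. The arrays were therefore aligned so that the Cdx4 ratio was negative on each. This leaves arrays 1 and 4 as labelled and turns arrays 2 and 3, so that the mutant RNA was in Cy5 on arrays 1 and 2 and in Cy3 on arrays 3 and 4. By the labels of arrays 2 and 3 every sign below turns round, and mutant and wildtype change places. The negative sign of Cdx4 is thus no result, and no test is given for it. Which side of zero Cdx2 and Cdx1 take relative to Cdx4 on an array does not depend on the labels but does depend on the normalisation. Replicate numbers were kept as labelled, so as aligned the 2 replicates also differ in dye. If arrays 2 and 3 had changed places, the replicates would be arrays 1 with 3 and 2 with 4, called the exchange pairing. That pairing called 22.6% of all genes higher and 19.6% lower, with adjusted p-values in limma of 3.85e-25 for Cdx2 and 1.10e-13 for Cdx1. Its moderated SE was 0.0506 for Cdx4, Cdx2 and Cdx1 alike. The spread was thus pooled over genes, and these p-values do not measure the spread of each gene between its own replicates. Which pairing holds the true replicates was not tested.

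Of 6 head and heart markers, 3 were measured in this posterior tissue. Otx2, Six3 and Hesx1, transcription factor genes of the forebrain, were well above background on none of the 4 arrays in either genotype. The heart muscle genes Myl7 and Tnnt2 were well above background on 4 of 4 arrays in both genotypes, and the cardiac factor gene Nkx2-5 on 3 arrays in the mutant and 4 in wildtype. None of these 3 was called in limma, also at an unadjusted p under 0.05, and their log2 ratios lay between -0.01 and 0.05. All 7 markers of tail bud and presomitic mesoderm were measured (T, Tbx6, Msgn1, Wnt3a, Fgf8, Hes7 and Dll1). Their summed normalised level was 25928 to 29355 units in the mutant channels and 24404 to 25301 units in the wildtype channels, and 1 of the 7, Wnt3a, was called higher. Over all genes, 3.28% were called higher and 4.44% lower in the mutant at an adjusted p under 0.05 in limma, and these shares change places by the labels of arrays 2 and 3.

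Cdx4 had the lowest ratio of the 14843 genes tested, a rank that depends on the alignment by its own sign and is no separate result. The Cdx4 probe covers 99532694 to 99532753 of chromosome X (mm8, plus strand) and is tied to the Cdx4 mRNA in the scanner files. The part of the gene removed in the null allele and the exon that holds the probe are not given in the sources used here. The aligned log2 ratios of Cdx4, mutant over wildtype, were -2.59, -2.11, -2.82 and -2.42 on arrays 1 to 4. Their mean was -2.48 ± 0.10 (moderated SE, n = 2 replicates), a 5.60-fold lower level in the mutant. In pooled tissue, fewer cells with the transcript and less transcript per cell cannot be told apart, here and for every gene below. By the labels the same ratios were -2.59, 2.11, 2.82 and -2.42, so that 2 arrays as labelled would have more Cdx4 transcript in Cdx4-/- tissue.

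A signal remained at the Cdx4 probe in the mutant channel. After subtraction of the local background it was 150.2, 212, 137 and 146 intensity units on arrays 1 to 4. The wildtype channels gave 1186, 1324, 2091 and 1813 units. The ranges did not overlap, but the alignment named the dimmer Cdx4 channel of each array mutant, so this is no separate result. The 153 negative control spots, which are designed to bind no transcript, gave the level of a spot without target in the same dye. Their median was 12.1, 15.7, 41.0 and 39.4 units in the mutant's dye on arrays 1 to 4, and the brightest of them reached 40.3, 136, 105 and 62.5 units. The mutant Cdx4 spot was thus brighter than every negative control on each array, and 3.34 to 13.5 times their median. Whether the remainder is transcript of the null allele, binding of other RNA to the probe, or wildtype tissue was not tested.

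How large that remainder is relative to wildtype depended on the background correction. With normexp and an offset of 50, the Cdx4 level in the mutant was 17.9% of wildtype, and the arrays gave 16.6%, 23.2%, 14.1% and 18.7%. With an offset of 0 it was 15.0%. The processed signals of the scanner software gave 9.04%, with 8.27%, 8.93%, 8.98% and 10.1% on arrays 1 to 4. Subtracting the median of the negative controls and cancelling the dye bias over arrays of opposite dyes gave 8.41%, an alternative chosen after the data were seen. The SD over the 2 replicates was 2.39 percentage points with the offset of 50 and 0.65 with the processed signals, smaller than the gap between these settings. An offset adds the same amount to both channels and so moves a dim channel most.

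**Figure D1:**
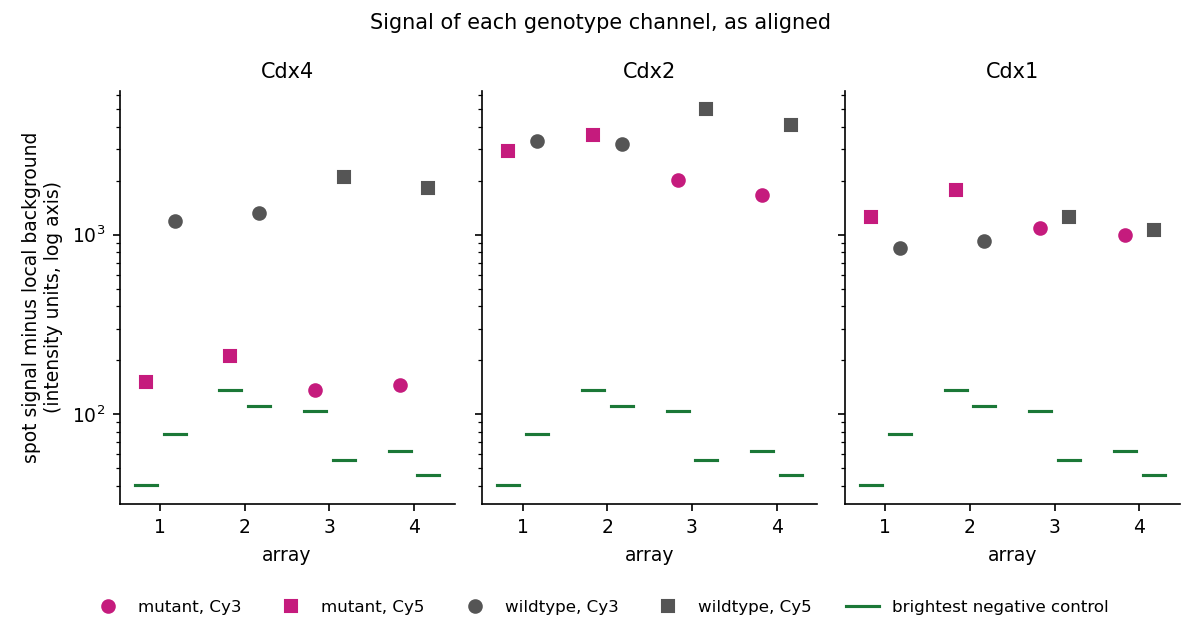
Spot signal minus local background (intensity units, log axis) of Cdx4, Cdx2 and Cdx1 in the mutant and wildtype channels of arrays 1 to 4, with genotypes as aligned. Circles are Cy3, squares are Cy5, and green bars are the brightest negative control of the same dye and array; mutant Cdx4 sits between 137 and 212 units, above the bar of its own dye on each array, and wildtype Cdx4 between 1186 and 2091.

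Cdx2 was lower in the mutant, but by less than 2-fold. The Cdx2 probe covers 147611320 to 147611379 of chromosome 5 (mm8, minus strand). The aligned log2 ratios were -0.77, -0.50, -0.45 and -0.45 on arrays 1 to 4. With loess, Cdx2 was on the same side of zero as Cdx4 on every array. Under median centring it was not on arrays 2 and 4, where the mutant Cdx2 level was 215% and 105% of wildtype. The mean with loess was -0.54 ± 0.10 (moderated SE, n = 2), a 1.46-fold decrease with an adjusted p of 0.000642 in limma. By the labels the ratios were -0.77, 0.50, 0.45 and -0.45. Cdx2 ranked 139 from the lowest ratio. The call ended under centring of each array on its median in place of loess, at -0.11 where all genes had a median of 0.28 (adjusted p = 0.983 in limma), and without the filter on dim probes (adjusted p = 0.104).

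The normalised Cdx2 levels were 2563, 2613, 2867 and 2522 units in the mutant channels of arrays 1 to 4. In the wildtype channels they were 4379, 3708, 3923 and 3441 units. Every mutant value lay below every wildtype value. The signals before dye normalisation did not separate in this way. They were 2940, 3580.2, 2022 and 1675 units in the mutant, against 3349.7, 3188, 5000.3 and 4077 units in wildtype. On array 2 the mutant channel, in Cy5, was brighter than the wildtype channel in Cy3. Loess brings the dyes of an array to 1 scale.

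The mutant retained 68.6% of the wildtype Cdx2 level, with a 95% interval of 59.5% to 79.1% from the limma fit. With no other change, and no RNA of the null allele bound by the probe, 1 of 2 alleles would give 50%. Whether the null allele gives such RNA was not tested. A level of 50% lay below the 95% interval. It also lay below the interval in all 17 alternative fits other than the fit as labelled. Under median centring, however, that interval ran from 56.8% to 151% and so included no change. It was not taken relative to the median of all genes, a log2 ratio of 0.28 in that setting. The median centring fit therefore cannot decide whether 50% lies outside. The intervals rest on a spread that is largely pooled over genes, with 25.7 prior degrees of freedom beside 1 residual degree of freedom for each gene. The array values of 58.5%, 70.5%, 73.1% and 73.3% were all above 50%. The processed signals gave 59.2%, 66.3%, 70.7% and 70.5%. Without dye normalisation the values were 87.8%, 112%, 40.4% and 41.1%, so that the statement needs the dyes to be brought to 1 scale.

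**Figure D2:**
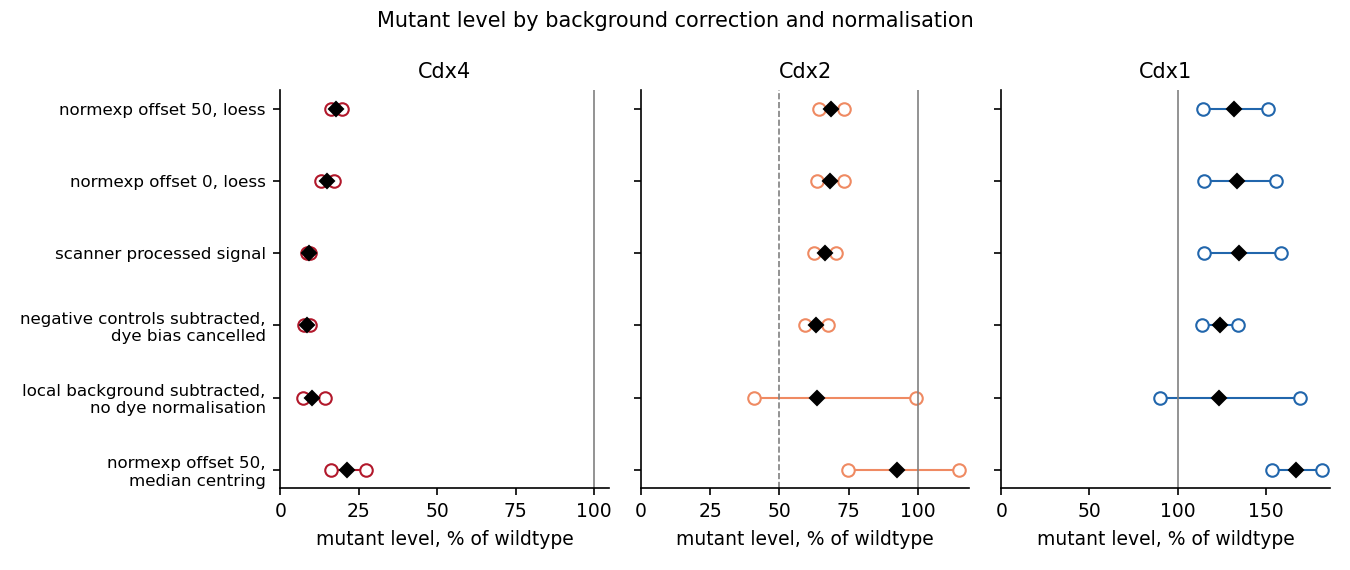
Mutant level as a percentage of wildtype (horizontal axis) for Cdx4, Cdx2 and Cdx1 under 6 ways of background correction and normalisation; open circles are the 2 replicates (arrays of opposite dyes averaged in the setting with negative controls), black diamonds their geometric mean. Cdx4 runs from 8.41% to 21.1% and Cdx2 from 63.2% to 92.6%; the solid line marks 100% and the dashed line 50%.

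With loess, Cdx1, which was not targeted, was on the opposite side of zero from Cdx4 and Cdx2 on every array. Without dye normalisation it was on the same side as both on arrays 3 and 4, at 86.4% and 93.4% of wildtype. The Cdx1 probe covers 61145778 to 61145837 of chromosome 18 (mm8, minus strand). The aligned log2 ratios were 0.07, 0.32, 0.57 and 0.62 on arrays 1 to 4. The mean was 0.40 ± 0.11 (moderated SE, n = 2), or 1.32-fold, with an adjusted p of 0.0173 in limma. By the labels the ratios were 0.07, -0.32, -0.57 and 0.62. Cdx1 ranked 279 from the highest ratio.

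The increase of Cdx1 rested on arrays 3 and 4 more than on arrays 1 and 2. Replicate 1 averaged 0.19 and replicate 2 averaged 0.60 on the log2 scale, a difference of -0.40 that was matched or exceeded in size by 6.78% of genes. The replicates differ in the dye that held the mutant RNA as aligned. When a dye effect was fitted for each gene, Cdx1 had -0.20 ± 0.05 of log2 Cy5 over Cy3 (SE), Cdx2 had -0.09 ± 0.05 and Cdx4 had 0.14 ± 0.07. With that term in the fit, which took the 4 arrays singly, the adjusted p of Cdx1 was 3.24e-05 in limma. As aligned, dye and labelled replicate cannot be told apart, so the term also took up the difference between replicates. Among 17 alternatives other than the fit as labelled, the call held in 7 and ended in 10. Their adjusted p ran from 1.10e-13 to 0.757 in limma. The alternatives that ended the call included the fit with the replicate number as a block (adjusted p = 0.0508 in limma) and the processed signals (adjusted p = 0.0930). Leaving out array 1, array 2 or array 3 also ended it, at log2 ratios of 0.46, 0.33 and 0.41 and adjusted p of 0.0668, 0.222 and 0.0904 in limma. The scanner software's own p-value for the Cdx1 log ratio of a single array was 0.482 and 0.226 on arrays 1 and 2. It was 0.00249 and 0.00135 on arrays 3 and 4.

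The normalised Cdx1 levels were 1211, 1409.9, 1602 and 1558 units in the mutant channels, and 1155, 1128, 1079 and 1011 units in the wildtype channels. The lowest mutant value, on array 1, was above the highest wildtype value, also on array 1. The mutant level was 132% of wildtype, with a 95% interval of 113% to 153%. Before dye normalisation the channels overlapped, at 1256, 1765, 1088 and 992 units in the mutant and 839, 919, 1259.97 and 1061 units in wildtype.

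**Figure D3:**
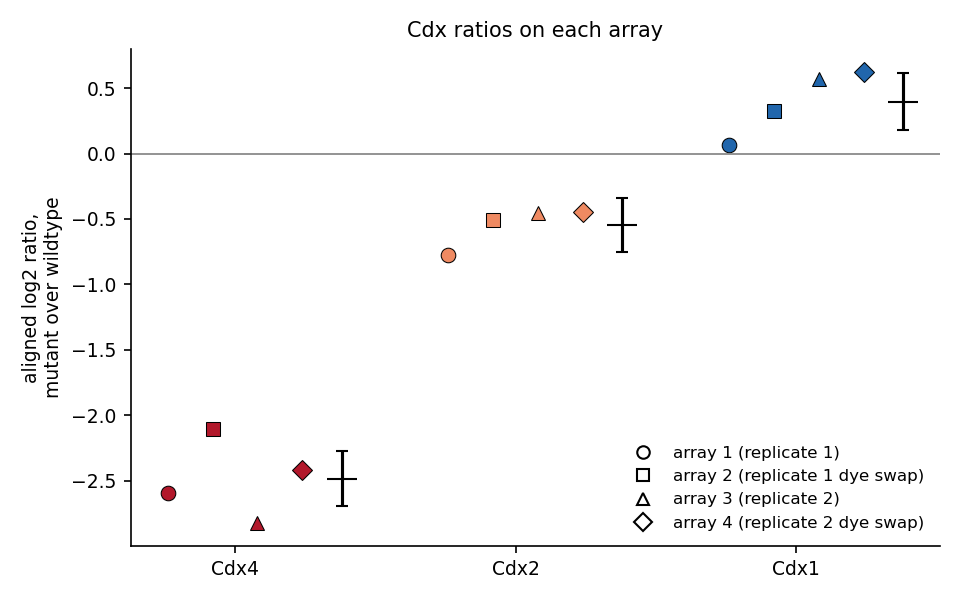
Aligned log2 ratios of mutant over wildtype for Cdx4, Cdx2 and Cdx1 on each of the 4 arrays (symbols), with the mean and its 95% interval from the limma fit (black bars). Cdx4 lies between -2.82 and -2.11, Cdx2 between -0.77 and -0.45, and Cdx1 between 0.07 and 0.62.

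The gap between Cdx2 and Cdx1 varied less between arrays than Cdx1 itself. The difference of their log2 ratios, Cdx2 minus Cdx1, was -0.84, -0.83, -1.02 and -1.07 on arrays 1 to 4. Its mean was -0.94 with an SD of 0.15 over the 2 replicates, against an SD of 0.28 for Cdx1 alone and 0.13 for Cdx2 alone. The difference of Cdx4 and Cdx2 was -1.82, -1.60, -2.37 and -1.97, with a mean of -1.94 and an SD of 0.33 over replicates. Both differences had the same sign on all arrays. They are differences of ratios and say nothing of the relative abundance of the 3 transcripts, since different probes cannot be compared in brightness.

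Over all genes the 5th and 95th percentiles of the log2 ratio were -0.30 and 0.27, and the median was 0.01. Cdx2 and Cdx1 lay outside that range. Cdx4 did so too, but its sign on each array was set by the alignment.

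**Figure D4:**
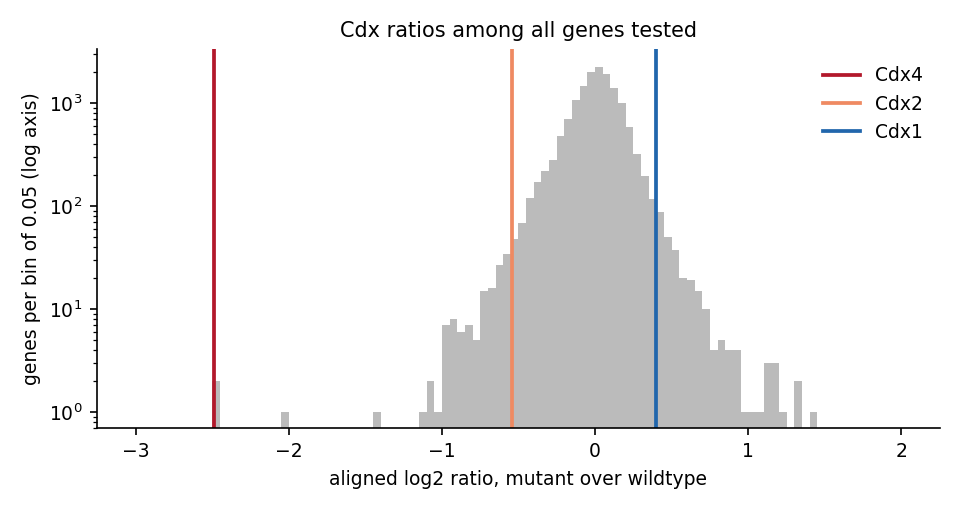
Histogram of the aligned log2 ratios of mutant over wildtype (horizontal axis) of the 14843 genes tested, with genes per bin of 0.05 on a log axis. The vertical lines mark Cdx4 at -2.48, Cdx2 at -0.54 and Cdx1 at 0.40.

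The sign of the Cdx4 ratio was set by the alignment, and a link between promoter sequence and the ratios was not tested. The promoters of the 2 targeted genes are shown as a description of their letters, without that of Cdx1. They are the 250 bases before the start of transcription in RefSeq (GRCm38.p6), from chr5:147307250-147307499 on the minus strand for Cdx2 and chrX:103321148-103321397 on the plus strand for Cdx4. Capitals mark the octamer ATGCAAAT, the site of POU factors such as Oct4, and the cAMP response element TGACGTCA.
Cdx2: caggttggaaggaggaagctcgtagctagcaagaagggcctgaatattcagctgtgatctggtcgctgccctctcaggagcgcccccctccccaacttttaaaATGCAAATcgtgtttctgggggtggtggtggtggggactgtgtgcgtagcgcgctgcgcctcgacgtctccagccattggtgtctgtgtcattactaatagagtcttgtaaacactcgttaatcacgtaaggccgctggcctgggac
Cdx4: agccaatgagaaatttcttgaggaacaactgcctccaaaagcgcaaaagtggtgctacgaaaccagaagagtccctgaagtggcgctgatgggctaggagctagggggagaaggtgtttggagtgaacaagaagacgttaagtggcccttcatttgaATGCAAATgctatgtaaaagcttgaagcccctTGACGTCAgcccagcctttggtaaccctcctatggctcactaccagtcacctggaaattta

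Each promoter held 1 octamer, starting 147 bases before the start of Cdx2 and 93 bases before that of Cdx4. On both strands, 1.60% of 32851 promoters of the same length held it. The cAMP response element was found in Cdx4 and not in Cdx2, and in 1.55% of all promoters. The motifs did not overlap. The CCAAT box was present once in each, as in 33.9% of promoters. Neither held TTTATG, a site of Cdx factors themselves (10.8% of promoters), or CTTTGAA, a site of LEF and TCF factors (4.46%). Pou5f1, which encodes Oct4, had a log2 ratio of -0.05 ± 0.10 (adjusted p = 0.878 in limma). A match is a description of the letters and not of binding.

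Genes known to act downstream of Cdx factors in the axis did not move in 1 direction. Of 9 such genes tested, 2 were lower and 1 was higher, where 4.44% of all genes were called lower and 3.28% higher. Their median log2 ratio was 0.07, against 0.01 over all genes. Cyp26a1, which degrades retinoic acid, had ratios of -0.84, -0.61, -0.59 and -0.55 on arrays 1 to 4 and fell (mean -0.65 ± 0.10, adjusted p = 7.26e-05 in limma). Hoxa7, a central Hox gene, had -0.31, -0.39, -0.45 and -0.50 and fell as well (mean -0.41 ± 0.10, adjusted p = 0.00861), although median centring put it at 0.06, below the median of 0.28 over all genes in that setting. Wnt3a, the tail bud ligand, had 0.25, 0.44, 0.31 and 0.38 and rose (mean 0.34 ± 0.10, adjusted p = 0.0273). Its call ended with an offset of 0 (adjusted p = 0.0564 in limma), with the processed signals (adjusted p = 0.0874) and when any of the 4 arrays was left out. Without array 1 or without array 2, 1 target was lower. The other 6 did not pass, from Ptk7, a receptor-like regulator of planar polarity, at -0.23 to the Notch ligand gene Dll1 at 0.20. Between them lay Hoxc8 at -0.10, Fgf8 at 0.07, Hoxb8 at 0.10 and T at 0.15. In the exchange pairing, which averages arrays of opposite dyes, 3 were higher and 3 lower, where 22.6% and 19.6% of all genes were called.

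Genes that Cdx factors activate in the adult intestine were measured in 5 of 10 cases, and 3 of these fell, where 4.44% of all genes were called lower. The median log2 ratio of the 5 was -0.33, against 0.01 over all genes. Vil1, encoding the microvillus protein villin, had ratios of -0.67, -0.55, -0.79 and -0.72 on arrays 1 to 4 (mean -0.68 ± 0.10, adjusted p = 3.60e-05 in limma), and its other probe was at -0.72. Fabp2, a fatty acid binding protein gene, was at -0.35 (adjusted p = 0.0286 in limma). Hnf4a, a nuclear receptor gene, was at -0.33 (adjusted p = 0.0325 in limma), with its other probe at -0.03. Lct at -0.04 and Mep1a at 0.05 did not pass. Cdh17, Sis, Muc2, Isx and Krt20 were not well above background on all arrays in either genotype, so no call could be made for them.

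Villin and Hnf4a are also known from visceral endoderm, the outer layer of the yolk sac. All 7 visceral endoderm markers fell, where 4.44% of all genes were called lower and 3.28% higher. They ran from Apoa4 at -0.39 to Afp at -2.04 on the log2 scale. Their summed normalised level was 30029 to 32078 units in the mutant channels, against 68045 to 82141 in wildtype. None of the 7 was at background in either genotype. Of 7 hindgut endoderm markers, 1 was higher, the keratin gene Krt18 at 0.36, and 0 were lower in limma, also at an unadjusted p under 0.05. Foxa2, an endoderm and notochord factor, was at 0.11 and Shh at 0.16. Of 5 endothelial markers, 3 were lower, with sums of 5890.3 to 6334 units in the mutant and 9501 to 10802 units in wildtype. The 3 embryonic globin genes tested were all higher, from 0.72 to 1.35 on the log2 scale. The part of these other cell types in the ratios of the intestinal genes, or of the Cdx genes, was not tested.

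Regulators of Cdx transcription were mostly without a call. Of 15 genes, 13 were tested. Wnt3a was the 1 called higher, against 2 genes higher at an unadjusted p under 0.05 in limma. At either threshold 0 were lower. Of all genes, 3.28% were called higher and 4.44% lower. Rxra, a retinoid receptor gene, was at 0.27 and Lef1, a Wnt effector gene, at 0.18. Ctnnb1, encoding beta-catenin, was at 0.07, Bmp4 at -0.04 and the retinoic acid receptor gene Rarg at -0.01. The median was 0.07 against 0.01 over all genes. In the exchange pairing 6 of the 13 were higher and 0 lower, where 22.6% and 19.6% of all genes were called. Of genes known to work with Cdx2 in trophoblast, Tfap2c was higher at 0.45 ± 0.10 (adjusted p = 0.00346 in limma), with 0.45, 0.52, 0.40 and 0.44 on arrays 1 to 4. Elf5 at 0.25 and Gata3 at 0.16 did not pass, and Eomes was at background in both genotypes. The other ParaHox genes, relatives of Cdx in the same ancestral cluster, gave 0.08 for Gsx1 and 0.02 for Pdx1, while Gsx2 was at background.

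**Figure D5:**
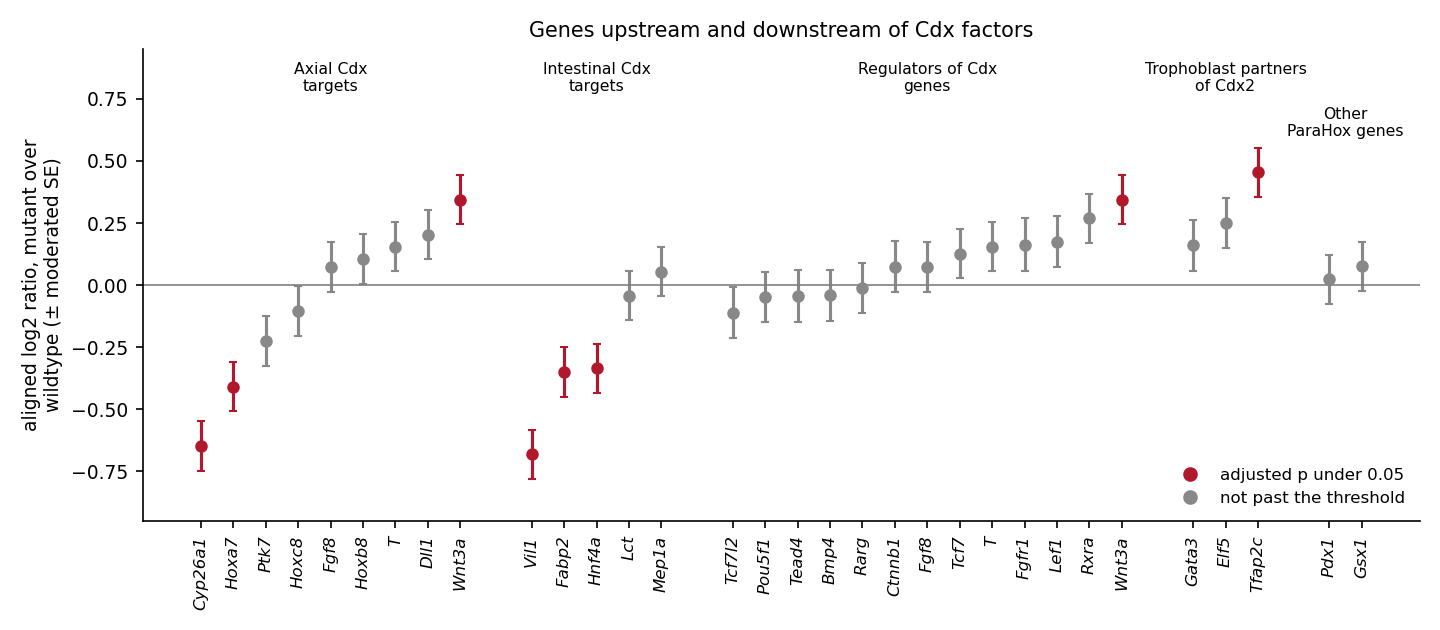
Aligned log2 ratios of mutant over wildtype (points, with moderated SE) for tested genes downstream and upstream of Cdx factors, in 5 groups; red points passed an adjusted p of 0.05 in limma. Cyp26a1, Hoxa7, Vil1, Fabp2 and Hnf4a lie below zero and Wnt3a and Tfap2c above it.

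Among the chromosomal neighbours of the Cdx genes, 1 was called, where 3.28% of all genes were called higher and 4.44% lower. Of the 3 protein-coding genes on each side of Cdx4, 2 were measured, Nap1l2 at 0.10 and Chic1 at 0.07, and neither was called in limma, also at an unadjusted p. Beside Cdx2, 4 of 6 were measured. Pan3, a gene of mRNA deadenylation, was higher at 0.42 ± 0.10 (adjusted p = 0.00651 in limma), but its other probe was at -0.00095. Polr1d was at -0.15, and Gsx1 and Pdx1, given above, were the other two. Beside Cdx1 the measured genes were Arsi at 0.11, Camk2a at 0.09, Pdgfrb at 0.02 and Hmgxb3 at -0.14, and none was called in limma, also at an unadjusted p. In the exchange pairing, where 22.6% of all genes were called higher and 19.6% lower, Pan3 was higher, and Polr1d (adjusted p = 0.00986 in limma) and Hmgxb3 (adjusted p = 0.0165) were lower.

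The genes nearest to each member were found by the Euclidean distance between log2 ratios over the 4 arrays, among genes with a conventional symbol. Rian, an imprinted non-coding RNA, was nearest to Cdx4 with a distance of 0.17, followed by Afp at 1.02 and the prolactin family gene Prl8a2 at 2.16. Those of Afp and Prl8a2 were larger than any of the distances given next for Cdx2 and Cdx1. Zfp987 was nearest to Cdx2 at 0.06, then the kinase gene Taok1 and the sorting nexin gene Snx27, both at 0.18. Otub1, a deubiquitinase gene, was nearest to Cdx1 at 0.11, then Spg21 and Rnf122, both at 0.14. With 4 arrays and 14843 genes, such distances describe these ratios only.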

How the data were processed

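RNA of mutant and wildtype posterior tissue was measured on 4 Agilent 2-colour arrays of 1 slide, which leaves no slide or scan batch to test. Per the file headers and the submitters' processing notes, Agilent Feature Extraction 9.5.3 made the deposited scanner files, with the intensity of each spot and local background, processed intensities, flags, log10 ratios (Cy5 over Cy3) and the p-value of each. The deposited series table held log10 ratios that equalled the scanner ratio, with the sign turned on the labelled dye swaps, for 100% of spots (tolerance 1e-05), and its columns had a median of 0.

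Spots were corrected by normexp (offset 50) and normalised by loess in limma 3.58.1 (R 4.3.3), control spots at weight 0, outlier spots left out (103 to 167 per array). Normalised levels also had Aquantile scaling. A probe was tested if well above background on all 4 arrays in 1 genotype, and the brightest tested probe stood for a gene. Of 41174 probes, 23374 were named by RefSeq accession, 6733 by current symbol, 2919 by an older symbol, and 8148 kept the file's name. Arrays 1 and 2, and 3 and 4, were averaged as the labelled replicates and fitted by lmFit and eBayes, and p-values were adjusted by Benjamini-Hochberg across 14843 genes. The exchange pairing averages arrays 1 with 3 and 2 with 4, the third pairing 1 with 4 and 2 with 3. Other alternatives were the replicate block, a dye term, other background corrections and normalisations, no filter, and leaving out arrays or replicates. Array number limits the precision. The fit was tested on simulated data. The members and lists were chosen with earlier results of these data known. Some genes of the lists are not reported here and were left out of the lists' counts and medians. Named genes are the members, the remaining genes of the lists, the neighbours and the 3 nearest genes.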

Additional observations from a re-analysis of the deposited data

Results flagged for a closer look

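In 3 of 82 genes examined, the aligned log2 ratio of 1 array lay far from the other 3, where chance marks about 1 group in 20. Zfp987, the gene nearest to Cdx2, was -0.75 on array 1 against -0.46 to -0.41 on the others. It was picked for array ratios like those of Cdx2, so it is no independent case to set against that rate. Rxra was 0.35 on array 2 against 0.24 to 0.25, and Nkx2-5, a heart marker, was 0.084 on array 1 against -0.02 to -0.01.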

How the results depend on the processing

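As labelled, with no array turned, the log2 ratios were -0.020 for Cdx4, -0.066 for Cdx2 and -0.050 for Cdx1, with 2 genes higher and 13 lower in limma, and 0 Cdx targets in either direction, also at an unadjusted p. The Cdx4 ratio was -2.74 with an offset of 0, -3.18 after subtraction of local background, -3.47 with processed signals or the deposited series table, and -2.24 under median centring. The last setting moved the median of all genes to 0.28; relative to it Cdx4 was -2.52, Cdx2 -0.39 and Cdx1 0.46. It gave -0.11 for Cdx2 and 0.74 for Cdx1, with 6 genes higher, 2 lower and 0 Cdx targets called in limma, against 579 genes and 1 target at an unadjusted p under 0.05. Without the filter Cdx2 (-0.54) and Cdx1 (0.40) lost their calls, with 10 genes higher and 4 lower. The call of Cdx1 also ended with the replicate block (0.40), arrays 1 and 4 only (0.35), local background (0.40), and processed signals or the series table (0.43). The cause of these changes was not tested.

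Genes higher and lower numbered 3350 and 2903 in the exchange pairing, 4467 and 3755 in the third pairing, 3784 and 3131 with a dye term, 202 and 316 on arrays 1 and 4 only, and 311 and 360 on arrays 2 and 3. Genes lower numbered 995 with local background, 1054 with processed signals and 1057 with the series table. The replicate block gave 582 higher and 581 lower. Leaving out 1 array gave 138 to 381 higher and 116 to 556 lower, with Cdx4 at -2.61 to -2.36, Cdx2 at -0.61 to -0.48 and Cdx1 at 0.33 to 0.46; single replicates gave -2.62 to -2.35, -0.64 to -0.45 and 0.19 to 0.60, with no test. Axial Cdx targets higher and lower numbered 3 and 3 in the exchange pairing, 4 and 4 in the third pairing and with a dye term, and 0 and 1 on arrays 1 and 4, where 1 was higher at an unadjusted p in limma. With an offset of 0, processed signals or the series table, 0 were higher, against 1, 2 and 2 at an unadjusted p.

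The Cdx4 percentage of wildtype was 15.0 with an offset of 0, 10.2 with local background subtracted and no dye normalisation, 9.04 with processed signals, 21.1 under median centring and 8.41 after subtraction of negative controls. Median centring gave 92.6 for Cdx2 and 167 for Cdx1. The mutant Cdx4 signal was 3.34 to 13.5 times the negative control median, which limits the precision of this share.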
